A study of Mus musculus with 24 samples.

Results

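The genes described here are 8 keratin genes of the interfollicular epidermis: Krt5, Krt14 and Krt15, which mark its basal layer, and Krt1, Krt10, Krt2, Krt77 and Krt24, which mark its suprabasal layers. They were taken by gene symbol from count tables of 27180 rows, which held 51 keratin genes in all. All 8 had a row in every library, and 8 of 8 passed the filter on low counts in each fit.

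RNA was sequenced from mouse skin in 24 libraries, 3 in each of 8 groups. Whole ear skin came from 8-week-old C57BL/6 mice (C57) and from K14E7 mice (E7), which carry the E7 oncogene of human papillomavirus 16 behind the keratin 14 promoter. Ear skin of C57, E7 and CD1dKOxK14E7 donors (here CD1dKOxE7, E7 skin that lacks CD1d according to its label) was grafted onto C57BL/6 recipients and taken at 14 or 28 days after grafting. The strain is given as C57BL/6 for all samples. E7 is expressed from a keratin 14 promoter, in the cells that use it, and Krt14 is among the 8 genes. The recipients were not knockouts, so a graft can hold recipient cells with intact Cd1d genes. The labels do not say whether the 3 grafts of a group came from separate donors or recipients, so p-values between grafts measure the spread between these libraries, which may be technical. Whole skin was sequenced, and in such bulk samples fewer cells of a type and less RNA per cell cannot be told apart.

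Keratins are the intermediate filament proteins of epithelial cells, and each filament is built from pairs of a type I and a type II chain. Basal keratinocytes, which divide and attach to the basement membrane, make the type II keratin Krt5 with the type I keratins Krt14 and, in a subset of basal and follicle bulge cells, Krt15. On leaving the basal layer they switch to Krt1 (type II) and Krt10 (type I), and in the upper layers Krt2 (type II) is added. Krt77 (type II), a relative of Krt1, is known from suprabasal epidermis and sweat ducts, and Krt24 (type I) from differentiated keratinocytes. In wounded or hyperplastic epidermis the programme is altered and other keratins, Krt6a, Krt6b, Krt16 and Krt17, are made.

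The type II genes lie together on mouse chromosome 15 and the type I genes on chromosome 11, all on the minus strand in the GENCODE vM21 models on GRCm38. Krt5 spans chr15:101707070-101712898 with 9 exons, and Krt2, Krt1 and Krt77 follow on the same chromosome from 101810689 to 101818169, from 101845426 to 101850794 and from 101858731 to 101869705. Krt24 spans chr11:99279959-99285262 with 8 exons, Krt10 lies at 99385254 to 99389364, Krt15 at 100131758 to 100135928 and Krt14 at 100203162 to 100207548. Krt10 overlaps the antisense gene Gm11940, and since the strand of the counting was not given, reads of both could be counted for Krt10.

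The sequences upstream of a basal gene (Krt5) and of the 3 suprabasal genes with the largest called differences between donors of grafts (Krt10, Krt2 and Krt24) are shown so that their start regions can be compared. Each is the 250 bases before the RefSeq start on GRCm38.p6, minus strand, read 5′ to 3′: chr15:101712906-101713155 for Krt5, chr11:99389365-99389614 for Krt10, chr15:101818170-101818419 for Krt2 and chr11:99285263-99285512 for Krt24. Capitals mark matches to 6 searched motifs.
Krt5: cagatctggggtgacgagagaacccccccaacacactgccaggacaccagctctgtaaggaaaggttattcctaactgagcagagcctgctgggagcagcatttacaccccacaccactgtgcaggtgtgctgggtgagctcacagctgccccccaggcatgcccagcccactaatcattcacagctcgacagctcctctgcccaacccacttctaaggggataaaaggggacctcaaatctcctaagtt
Krt10: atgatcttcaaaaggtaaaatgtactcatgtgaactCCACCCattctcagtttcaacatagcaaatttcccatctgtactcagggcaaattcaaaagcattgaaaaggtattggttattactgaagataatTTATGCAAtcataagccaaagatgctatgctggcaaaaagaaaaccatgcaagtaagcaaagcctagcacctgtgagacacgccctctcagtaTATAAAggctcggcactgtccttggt
Krt2: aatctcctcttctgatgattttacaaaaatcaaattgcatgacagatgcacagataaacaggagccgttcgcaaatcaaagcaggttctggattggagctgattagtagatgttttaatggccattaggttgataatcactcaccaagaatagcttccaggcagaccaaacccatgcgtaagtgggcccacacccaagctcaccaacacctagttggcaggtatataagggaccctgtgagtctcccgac
Krt24: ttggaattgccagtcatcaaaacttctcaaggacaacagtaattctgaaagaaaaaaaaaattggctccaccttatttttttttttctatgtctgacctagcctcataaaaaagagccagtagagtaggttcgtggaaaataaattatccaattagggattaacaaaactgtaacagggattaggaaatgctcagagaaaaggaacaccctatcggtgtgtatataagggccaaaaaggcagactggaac
The motifs were searched on both strands in the same window of 32851 RefSeq promoters, and none was allowed a mismatch. They were the AP-1 motif TGANTCA, held by 6.75% of promoters, the AP-2 motif GCCNNNGGC (13.7%), the C/EBP motif TTGCNNAA (9.56%), the E2F motif TTTNNCGC (4.28%), the CACCC box CCACCC of KLF factors (28.1%) and the TATA box TATAAA (12.4%). Krt10 held CCACCC starting 214 bases before its start, TTATGCAA (C/EBP on the other strand) at 119 bases and TATAAA at 26 bases. Krt5, Krt2 and Krt24 held no match in this window. Variants of these letters were not searched, so no match does not mean that a TATA box is absent. Among the other members, Krt77 held the C/EBP match TTCAGCAA at 129 bases and Krt14 a CCACCC at 99 bases, in a record that begins inside the gene's model. RefSeq promoters were matched for 6 of the 8 genes, all but Krt1 and Krt15. A match is a run of letters and says nothing of binding.

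Libraries held 6550011 to 13814448 counts. Levels are CPM, counts divided by the scaled library size and brought to a common total, and a mean is given with the SD of 3 libraries. Reads of the E7 transgene were at 0 to 0.135 CPM in C57 libraries and at 17.6 to 57.1 CPM in all E7 and CD1dKOxE7 libraries. Cd1d1, the gene that CD1dKOxE7 skin should lack, was at 11.4 to 17.2 CPM in the CD1dKOxE7 grafts of day 14, which overlaps the 14.2 to 16.8 CPM of E7 grafts. At day 28 it was at 5.33 and 4.44 CPM in CD1dKOxE7 replicates 1 and 2 and at 14.7 CPM in replicate 3, against 21.4 to 25.8 CPM in E7 grafts. Cd1d1 reads therefore did not separate the day 14 grafts labelled CD1dKOxE7, and neither the deleted stretch of the gene nor the share of recipient cells is given in the labels. At day 14, E7 was at 20.4, 17.6 and 23.5 CPM in grafts labelled CD1dKOxE7, all below the 33.8, 40.6 and 38.6 CPM of E7 grafts. Within the CD1dKOxE7 grafts of day 28, replicate 3 also had less E7, 18.8 CPM against 44.1 and 44.4 CPM. The contrast with E7 grafts at day 28 and its difference from day 14 are given with and without that replicate. For the change over time in those grafts, Krt15 alone is given without it. All 3 libraries of that group correlated a little more with E7 grafts of day 28 than with each other, while the other 21 libraries were closest to their own group. Ear and graft libraries came from different flow cells, and the grafts labelled CD1dKOxE7 ran on a lane apart from the other grafts. Flow cell and tissue, or lane and CD1dKOxE7 label, cannot be told apart.

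The 8 genes together took 3.67 to 4.08% of all counts in C57 ear and 5.14 to 8.50% in E7 grafts of day 14, where their share was highest. The grafts labelled CD1dKOxE7 of day 14 held the lowest share, 2.42 to 3.52%. Per kilobase of transcript, Krt10 stood 16.6-fold above Krt1 in C57 ear and 2.54-fold above it in E7 ear. It was 1.01-fold of Krt1 in E7 grafts of day 14 and 0.444-fold in CD1dKOxE7 grafts of day 14. This chain pair was thus furthest from equal transcript levels in C57 ear, where Krt1 was lowest. In the sum of the 8 genes per kilobase, type I exceeded type II by 1.04 to 1.41-fold in every library, so the summed ratio of the types varied far less than its members did.

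**Figure D1:**
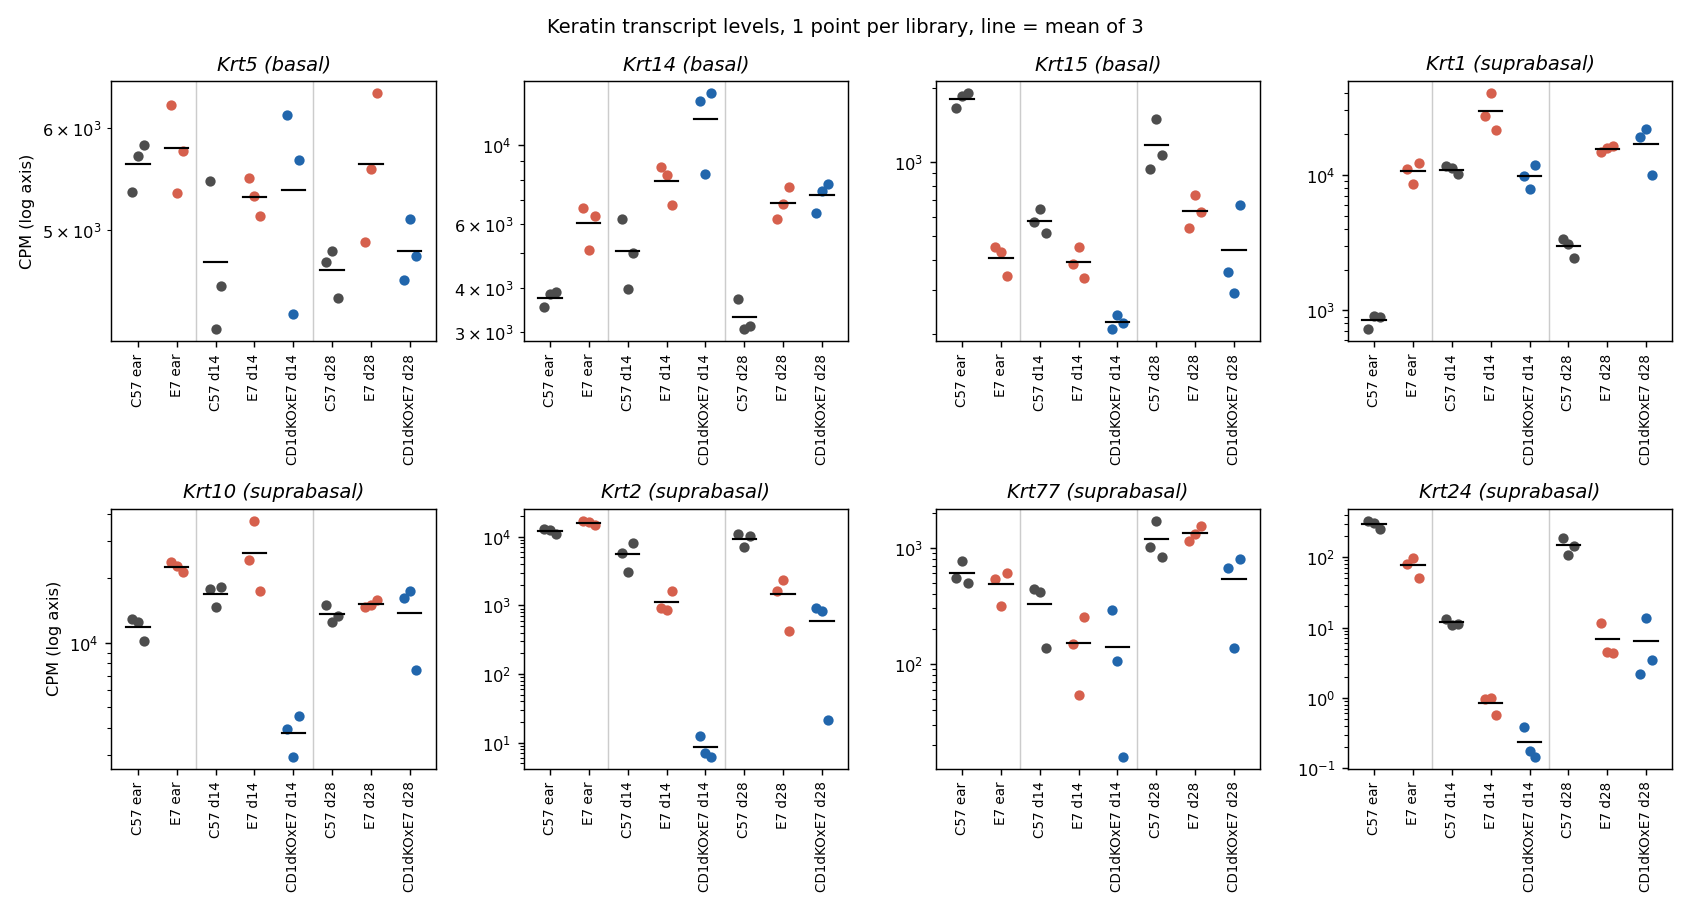
Level of each of the 8 keratin genes (CPM, log axis) in each of 24 libraries, by group, with 1 point per library and a line at the group mean. Krt5 stays between 4185 and 6395 CPM in all libraries, whereas Krt2 spans 6.20 to 17180 CPM and Krt24 0.144 to 331.6 CPM.

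Krt5 was the steadiest member. Its group means ran from 4653 ± 199 CPM in C57 grafts of day 28 to 5790 ± 457 CPM in E7 ear, and in the order of the 8 means only one pair of neighbours did not overlap, E7 grafts of day 14 above CD1dKOxE7 grafts of day 28. Krt14, its usual partner, was less even: its means ran from 3303 ± 360 CPM in C57 grafts of day 28 to 11820 ± 3083 CPM in CD1dKOxE7 grafts of day 14. The 6 highest groups by Krt14 formed a chain of overlapping neighbours, and C57 ear and C57 grafts of day 28 lay under them. Krt15 ran the other way from Krt14, with 1816 ± 135 CPM in C57 ear at the top and 223 ± 15.3 CPM in CD1dKOxE7 grafts of day 14 at the bottom. Krt1 was lowest in C57 ear at 843 ± 103 CPM and highest in E7 grafts of day 14 at 29830 ± 9653 CPM. Krt10 held 11850 to 26330 CPM as group means in 7 groups and 3799 ± 814 CPM in CD1dKOxE7 grafts of day 14. In that group Krt2, Krt10, Krt24 and Krt15 were each at the lowest mean of all 8 groups and separate from the next.

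Ear skin was compared to see how E7 changed the keratin set in unmanipulated skin. Krt14, Krt1, Krt10 and Krt2 rose in E7 ear, Krt15 and Krt24 fell, and Krt5 and Krt77 did not pass the test. So 4 of 8 genes rose and 2 fell, in a comparison in which 65.3% of 15720 tested genes were called, 32.6% higher and 32.7% lower (5129 and 5138 genes, against 1314 and 11733 on the epithelial scale described with the other tissues of the ear). For 6 of 8 genes no C57 library reached into the E7 range, as was so for 71.1% of all genes tested. Each class, basal and suprabasal, held a gene that rose and a gene that fell.

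Of the basal genes, Krt5 read 5349, 5706 and 5824 CPM in C57 ear and 6259, 5346 and 5765 CPM in E7 ear. These groups overlapped, and the log2 fold change was 0.04 ± 0.10 (SE), with a 95% interval of -0.17 to 0.26. Krt14 read 3528, 3847 and 3877 CPM in C57 ear and 6685, 5086 and 6345 CPM in E7 ear. All E7 libraries lay above all C57 libraries, a rise of 0.69 ± 0.12 (1.61-fold; adjusted p = 0.0002998 by edgeR's quasi-likelihood test with Benjamini-Hochberg adjustment, used throughout). Krt15, the gene of a basal and bulge subset, read 1663, 1868 and 1918 CPM in C57 ear and 452, 429 and 343 CPM in E7 ear. It fell 4.45-fold (-2.15 ± 0.11; edgeR adjusted p = 4.833e-08), so the 2 type I genes of the basal layer moved apart. Per kilobase, Krt15 was 0.483-fold of Krt14 in C57 ear and 0.0686-fold in E7 ear.

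Of the suprabasal genes, Krt1 read 725, 908 and 898 CPM in C57 ear and 11130, 8512 and 12250 CPM in E7 ear. It rose 12.6-fold (3.66 ± 0.16; edgeR adjusted p = 2.175e-08). Krt10 read 12850, 12530 and 10180 CPM in C57 ear and 23720, 22740 and 21390 CPM in E7 ear, without overlap. It rose 1.91-fold (0.93 ± 0.12; edgeR adjusted p = 5.256e-05), a far smaller change than that of its partner. Krt2, the chain of the upper layers, read 12820, 12370 and 10840 CPM against 17180, 16140 and 14860 CPM and rose 1.34-fold (0.42 ± 0.11; edgeR adjusted p = 0.006963). Krt24 read 332, 305 and 254 CPM against 81.0, 98.2 and 50.6 CPM and fell 3.88-fold (-1.96 ± 0.26; edgeR adjusted p = 0.001599). Krt77 read 549, 765 and 496 CPM in C57 ear and 542, 318 and 600 CPM in E7 ear, and these overlapped.

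Markers of other ear tissues moved in the same comparison. All 8 dermal matrix genes fell, their summed level being 8521 to 9509 CPM in C57 ear and 2444 to 4648 CPM in E7 ear. All 8 skeletal muscle genes fell (4181 to 7536 against 1526 to 2266 CPM), as did 5 of 5 cartilage genes tested (379 to 426 against 115 to 120 CPM, with Matn1 at 0 in both), while all 13 genes expressed in epithelia at large rose (5698 to 6986 against 8929 to 9457 CPM). Among all genes tested, 32.6% rose and 32.7% fell. Scaling the libraries to those 13 epithelial genes put the median of all genes at -0.66 and the keratins lower by as much. There Krt1 at 2.99, Krt10 at 0.28, Krt15 at -2.82 and Krt24 at -2.61 on the log2 scale still passed, Krt14 stood at 0.02 (edgeR adjusted p = 0.8496), and Krt5 at -0.62 and Krt2 at -0.24 were lower instead. Krt77, at -0.96, passed only on that scale (edgeR adjusted p = 0.01959). Krt2 also did not pass with all 24 libraries in one fit (edgeR adjusted p = 0.6542).

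In grafts of day 14, Krt14 and Krt1 rose in E7 against C57 skin and Krt24 fell. The other 5 genes did not pass, so that 2 of 8 rose and 1 fell where 30.2% of 16189 tested genes were called, 15.8% higher and 14.4% lower (2555 and 2334 genes, against 708 and 6644 on the epithelial scale). The groups did not overlap for 5 of 8 genes (47.2% of all genes tested). The median log2 fold change of the 8 genes was -0.18, and that of all genes -0.04.

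Krt14 read 6206, 3977 and 4998 CPM in C57 grafts and 8684, 8251 and 6798 CPM in E7 grafts, without overlap. It rose 1.58-fold (0.66 ± 0.19; edgeR adjusted p = 0.01769), but did not pass without C57 replicate 2 (0.0777), C57 replicate 3 (0.05806) or E7 replicate 1 (0.06635), or on the epithelial scale (0.1757). Krt15 read 573, 643 and 512 CPM against 383, 453 and 336.5 CPM, and its difference of -0.55 ± 0.25 did not pass (edgeR adjusted p = 0.1084) although the groups did not overlap. It passed on the epithelial scale (-0.90, 0.02594) and with only these 6 libraries fitted (0.02283), so which basal gene was called depended on the scaling. Krt5 differed by 0.18 ± 0.14 (-0.17 on the epithelial scale).

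Krt1 read 11580, 11180 and 10170 CPM in C57 grafts and 27500, 40440 and 21560 CPM in E7 grafts. It rose 2.74-fold (1.45 ± 0.27; edgeR adjusted p = 0.001171), and E7 libraries spread far more than C57 libraries did. Krt10 read 17750, 14740 and 18130 CPM against 24380, 37250 and 17370 CPM; the groups overlapped in E7 replicate 3, and the difference of 0.65 ± 0.29 (edgeR adjusted p = 0.09498) passed when that library was left out (0.88, 0.03444). Krt2 read 5807, 3024 and 8087 CPM in C57 grafts and 924, 852 and 1640 CPM in E7 grafts. These did not overlap, but the difference of -2.29 ± 0.90 did not pass (edgeR adjusted p = 0.06709), while it passed with DESeq2 (adjusted p = 0.03282), on the epithelial scale (0.02743), with all 24 libraries in one edgeR fit (0.03279) and with these 6 libraries alone (0.01475). Krt24, already low in C57 grafts at 13.4, 10.9 and 11.1 CPM, was at 0.951, 0.987 and 0.574 CPM in E7 grafts, where it had 6, 9 and 5 counts. It fell 13.9-fold (-3.80 ± 0.71; edgeR adjusted p = 0.001732). Krt77 read 439, 415 and 138 CPM against 150, 54.6 and 252 CPM, with overlap.

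In grafts of day 28, Krt14 and Krt1 again rose in E7 skin and Krt15, Krt2 and Krt24 fell. That was 2 of 8 higher and 3 lower where 35.4% of tested genes were called, 20.7% higher and 14.7% lower (3345 and 2383 genes, against 878 and 7772 on the epithelial scale). Krt5, Krt10 and Krt77 did not pass, and 6 of 8 genes did not overlap (53.2% of all genes tested). The members' median was 0.18 and that of all genes 0.01.

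Krt14 read 3717, 3061 and 3130 CPM in C57 grafts and 6200, 6843 and 7647 CPM in E7 grafts. It rose 2.11-fold (1.08 ± 0.19; edgeR adjusted p = 0.0005949). Krt15 read 941.5, 1502 and 1067 CPM against 539, 736 and 629 CPM and fell 1.82-fold (-0.87 ± 0.25; edgeR adjusted p = 0.01493), a call lost without C57 replicate 2 (0.074) or E7 replicate 1 (0.06203). Krt5 read 4718, 4812 and 4429 CPM against 4896, 5583 and 6395 CPM; these did not overlap, but 0.29 ± 0.14 did not pass (edgeR adjusted p = 0.108), and on the epithelial scale it was -0.14. Of the basal genes, one rose, one fell and one did not pass, the same 3 outcomes for the same genes as in ear.

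Krt1 read 3356, 3113 and 2451 CPM in C57 grafts and 14680, 15870 and 16390 CPM in E7 grafts. It rose 5.32-fold (2.41 ± 0.28; edgeR adjusted p = 1.156e-05). Its partner Krt10 read 14930, 12480 and 13270 CPM against 14750, 14950 and 15790 CPM, with overlap, and differed by 0.18 with an interval of -0.43 to 0.79 (-0.25 on the epithelial scale). Krt2 read 10810, 7119 and 10310 CPM in C57 grafts and 1598, 2325 and 420 CPM in E7 grafts. It fell 6.42-fold (-2.68 ± 0.91; edgeR adjusted p = 0.03425). That call was lost without C57 replicate 1 (0.07038), C57 replicate 3 (0.06893), E7 replicate 1 (0.08173) or E7 replicate 3 (0.1057) and with no filter on low counts (0.05854). Krt24 read 188, 107 and 146 CPM against 11.4, 4.51 and 4.37 CPM and fell 21.3-fold (-4.41 ± 0.49; edgeR adjusted p = 1.711e-05), with 2 of 16189 genes lower in fold change, and the value was -5.03 without E7 replicate 1. Krt77 read 1015, 1710 and 835 CPM against 1146, 1319 and 1533 CPM.

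Dermal and epithelial markers moved in the grafts as well. At day 14, 6 of 8 dermal matrix genes fell in E7 grafts (summed level 31480 to 46760 CPM in C57, 16490 to 26080 CPM in E7) and 7 of 13 general epithelial genes rose (5865 to 7073 against 7453 to 8636 CPM). Among all genes tested at that day, 15.8% rose and 14.4% fell. At day 28, 5 of 8 dermal matrix genes fell (20780 to 38380 against 13230 to 19730 CPM) and 10 of 13 epithelial genes rose (5700 to 5892 against 6509 to 7138 CPM). The shares of all genes were then 20.7% higher and 14.7% lower. Scaled to those epithelial genes, Krt1 remained 1.10 higher at day 14 and 1.98 higher at day 28 on the log2 scale, and Krt14 0.65 higher at day 28; all 3 passed.

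**Figure D2:**
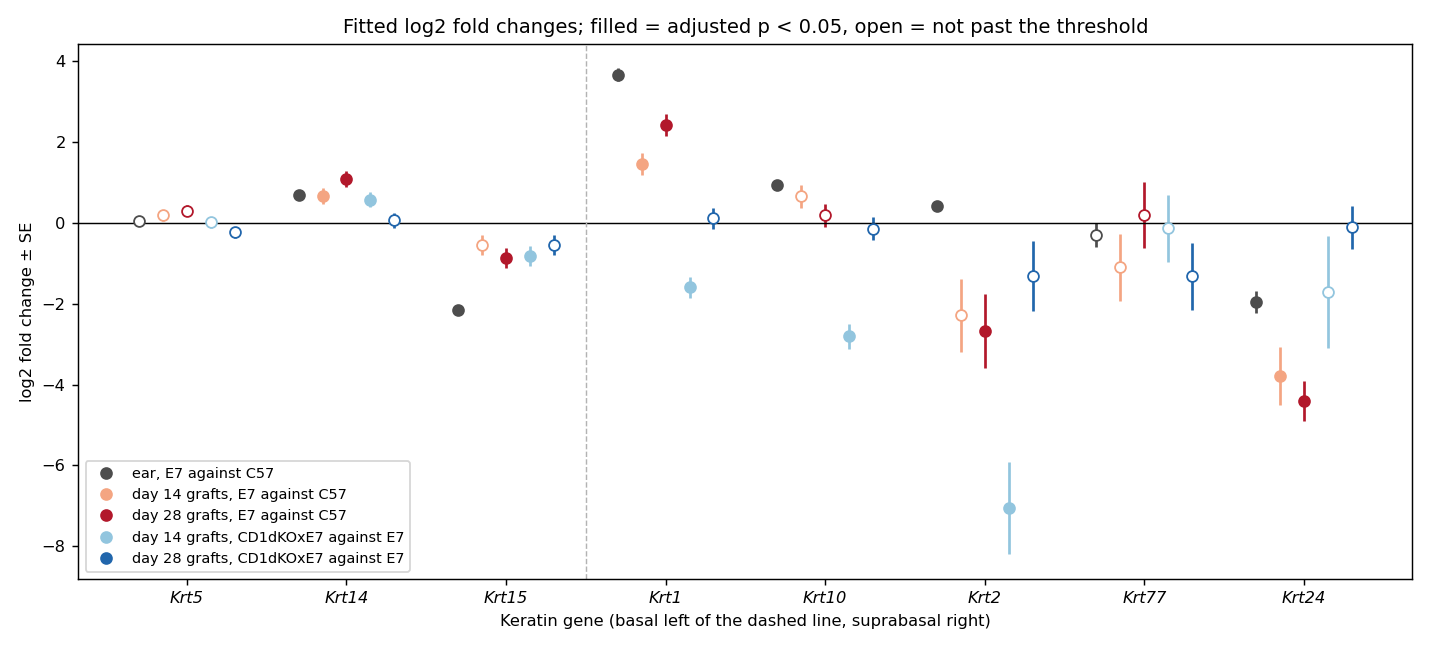
Log2 fold change of the 8 keratin genes (x axis) with its SE in 5 comparisons; filled points passed edgeR's adjusted p threshold of 0.05. Krt1 is higher in the 3 comparisons of E7 with C57 skin, and Krt2 at day 14 in CD1dKOxE7 against E7 grafts is the lowest point at -7.05.

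Whether E7 acted alike in ear and graft was tested as a difference of log2 fold changes in one fit of all 24 libraries. At day 14, 2 of 8 genes differed where 12.6% of 16612 genes were called (4.02% upward, 8.61% downward): the fall of Krt15 was smaller in grafts by 1.60 ± 0.33 (edgeR adjusted p = 0.003287) and the rise of Krt1 smaller (-2.21 ± 0.35; 0.0002624). The difference for Krt2, which was higher in E7 ear and lower in E7 grafts, was -2.73 ± 1.09 and did not pass (edgeR adjusted p = 0.1092; 0.005121 with only these groups fitted). At day 28, 3 of 8 differed where 7.43% were called (2.29% upward, 5.13% downward). Krt24 fell further in grafts (-2.47 ± 0.56; edgeR adjusted p = 0.01221; -3.09 without E7 graft replicate 1). Krt15 differed by 1.27 ± 0.33 (0.02229), a call lost without C57 ear replicate 3 (0.05333), E7 ear replicate 3 (0.06289), C57 graft replicate 1 (0.06168) or 3 (0.0571), or E7 graft replicate 2 (0.05524). Krt1 differed by -1.26 ± 0.34 (edgeR adjusted p = 0.03002). That call was lost without replicate 1 or 3 of C57 ear (0.07754, 0.05435), 1 or 3 of E7 ear (0.06776, 0.08112), 1 or 2 of C57 grafts (0.07354, 0.0602) or 1 or 2 of E7 grafts (0.07488, 0.05463), on the epithelial scale (0.05703) and without a filter on low counts (0.05538). Krt2 had the largest difference of the 8 at day 28, -3.12 ± 1.09, which did not pass (edgeR adjusted p = 0.09288) but did with DESeq2 (0.04615) and with only these groups fitted (0.02325). Krt10, at -0.77 ± 0.36 (edgeR adjusted p = 0.2106), passed with only these groups fitted (0.004427). Between the 2 days of grafting, 0 of 8 genes differed in the E7 effect (0.167% of genes called, 0.148% upward and 0.0185% downward; 1 of 8 at an unadjusted edgeR p under 0.05, Krt1 at 0.96 ± 0.37 with adjusted p = 0.4195; 0 of 8 with DESeq2).

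The C57 libraries had different baselines in ear and graft. Krt1 was at 843 CPM in C57 ear, 10980 CPM in C57 grafts of day 14 and 2973 CPM at day 28. Against C57 ear, C57 grafts of day 14 had 13.0-fold more Krt1 (3.70 ± 0.27; edgeR adjusted p = 3.231e-09), 25.1-fold less Krt24 (-4.65 ± 0.43; 1.256e-07) and 3.15-fold less Krt15 (-1.66 ± 0.24; 1.063e-05), where 52.6% of genes were called (30.6% higher, 22.0% lower) and 7 of 8 members did not overlap (63.0% of all genes). Grafts and ears differ in flow cell, and the part of that in these differences cannot be told apart. E7 grafts of day 14 had 14.1-fold less Krt2 than E7 ear (-3.82 ± 0.85; edgeR adjusted p = 0.0015) and 90.9-fold less Krt24 (-6.51 ± 0.60; 4.603e-07), where 43.2% were called (21.9% higher, 21.3% lower).

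Grafts labelled CD1dKOxE7 were compared with E7 grafts of the same day; both comparisons use the E7 grafts already set against C57, so they are not independent of those. At day 14, Krt2, Krt10, Krt1 and Krt15 fell in grafts labelled CD1dKOxE7 and Krt14 rose. That was 1 of 8 higher and 4 lower where 29.8% of tested genes were called, 15.1% higher and 14.8% lower (2440 and 2388 genes, against 6250 and 487 on the epithelial scale). The members' median was -1.21 and that of all genes -0.03, and 5 of 8 genes did not overlap (42.5% of all genes tested). These directions are between the libraries so labelled, since Cd1d1 reads did not separate them. Reads of E7 were lower in the labelled grafts (17.6 to 23.5 against 33.8 to 40.6 CPM), and their part in these differences was not tested.

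E7 grafts read 924, 852 and 1640 CPM for Krt2, and those labelled CD1dKOxE7 read 12.4, 7.02 and 6.20 CPM, from 129, 79 and 43 counts. It fell 133-fold (-7.05 ± 1.15; edgeR adjusted p = 0.0004044), the lowest fold change of the 16189 genes tested. Krt10 read 24380, 37250 and 17370 CPM against 3944, 2922 and 4531 CPM and fell 6.98-fold (-2.80 ± 0.31; edgeR adjusted p = 1.147e-05). Krt1 read 27500, 40440 and 21560 CPM against 9880, 7929 and 11930 CPM and fell 3.03-fold (-1.60 ± 0.27; edgeR adjusted p = 0.0003425). For these 3 genes every library labelled CD1dKOxE7 lay below every E7 library, and they passed at all settings tried. Krt24 was near the limit of detection in both groups, at 0.574 to 0.987 CPM and, from 4, 2 and 1 counts, at 0.385, 0.178 and 0.144 CPM. The groups did not overlap, but -1.71 ± 1.37 did not pass (edgeR adjusted p = 0.3854). Krt77 read 150, 54.6 and 252 CPM against 294, 107 and 15.9 CPM, a spread that covers both groups.

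Of the basal genes, Krt14 read 8684, 8251 and 6798 CPM in the E7 group against 13220, 8290 and 13960 CPM in grafts labelled CD1dKOxE7, with overlap in replicate 2. It rose 1.48-fold (0.57 ± 0.19; edgeR adjusted p = 0.0341), and the call was lost without E7 replicate 2 (0.06555) or 3 (0.1192), without CD1dKOxE7 replicate 1 (0.1089) or 3 (0.1493), and with only these 6 libraries fitted (0.1001). Krt15 read 383, 453 and 336.5 CPM against 208, 239 and 222 CPM and fell 1.76-fold (-0.82 ± 0.25; edgeR adjusted p = 0.02298). Without E7 replicate 2 (0.07827), CD1dKOxE7 replicate 1 (0.07039) or 3 (0.06354), or on the epithelial scale (0.253), Krt15 did not pass. Krt5 read 5485, 5317 and 5127 CPM against 6142, 4304 and 5673 CPM, and its log2 fold change of 0.01 ± 0.14 had an interval of -0.28 to 0.30 (upper quartile scaling turned its sign). The basal and suprabasal members thus differed in size: the largest basal change was 1.76-fold, and 3 of 5 suprabasal genes fell by 3.03-fold or more.

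Other cell types moved in the same comparison. Of 8 leukocyte genes, 6 rose and 1 fell, the summed level being 237 to 355 CPM in E7 grafts and 889 to 1045 CPM in grafts labelled CD1dKOxE7, and 7 of 13 general epithelial genes fell (7453 to 8636 against 4914 to 6839 CPM). Among all genes tested, 15.1% rose and 14.8% fell. Scaled to the epithelial genes, Krt2 stood at -6.71, Krt10 at -2.45 and Krt1 at -1.25 on the log2 scale, and all 3 passed. Krt5 was then 0.36 higher and passed (edgeR adjusted p = 0.03449), with the median of all genes at 0.34. The part of leukocytes in these differences was not tested. Set against C57 grafts of day 14, the same libraries labelled CD1dKOxE7 had 649-fold less Krt2 (-9.34 ± 1.25; edgeR adjusted p = 5.981e-05), 45.4-fold less Krt24 (-5.51 ± 0.85; 0.0001904) and 4.44-fold less Krt10 (-2.15 ± 0.30; 4.664e-05), with Krt1 at -0.15 ± 0.26, where 39.2% of genes were called (19.1% higher, 20.1% lower).

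At day 28, 0 of 8 genes differed between grafts labelled CD1dKOxE7 and E7 grafts, where 34 of 16189 genes (0.21%) were called. At an unadjusted p under 0.05 in edgeR's quasi-likelihood fit there was 1 of 8, Krt15 (edgeR adjusted p = 0.3829), and with DESeq2 0 of 8. With the replicate number as a block 65 genes were called. Krt15 read 539, 736 and 629 CPM in the E7 group against 358, 292.5 and 671 CPM in grafts labelled CD1dKOxE7, with replicate 3 inside the E7 range. Krt1 read 14680, 15870 and 16390 CPM against 19120, 21980 and 10010 CPM, Krt10 read 14750, 14950 and 15790 CPM against 16270, 17420 and 7493 CPM, and Krt2 read 1598, 2325 and 420 CPM against 913, 825 and 21.6 CPM. Replicate 3 was the lowest of its group in all 3. The intervals of the log2 fold change were -0.44 to 0.67 for Krt1, -0.76 to 0.46 for Krt10 and -3.18 to 0.56 for Krt2, so a fall of the size seen at day 14 lay outside the interval for each. Krt77 read 1146, 1319 and 1533 CPM against 667, 138 and 805 CPM; these did not overlap, and the interval was -3.11 to 0.46.

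Without that replicate 3, which also stood apart by E7 and Cd1d1 reads, 304 genes were called at day 28. Krt15 then passed at -0.97 ± 0.19 (edgeR adjusted p = 0.02498), and the other 7 still did not. Krt1 stood at 0.39, Krt10 at 0.15, Krt2 at -0.74 and Krt24 at 0.16. Signs of Krt1, Krt10 and Krt24 at day 28 thus depend on single libraries.

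The difference between the days was itself tested. The gap between grafts labelled CD1dKOxE7 and E7 grafts closed for 3 of 8 genes, where 12.8% of genes were called, 6.54% of all genes upward. It closed by 5.74 ± 1.35 on the log2 scale for Krt2 (edgeR adjusted p = 0.01478), by 2.65 ± 0.41 for Krt10 (0.001279) and by 1.71 ± 0.37 for Krt1 (0.008887). Without replicate 3 of day 28 these were 6.31, 2.95 and 1.99. Of the 16189 genes, 1 had a larger upward difference than Krt2. No basal gene passed, with Krt14 at -0.51 ± 0.27 and Krt15 at 0.28 ± 0.35. On the epithelial scale Krt14 (-0.84; edgeR adjusted p = 0.04379) and Krt5 (-0.58; 0.04877) did pass.

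From day 14 to day 28 the donors differed in how these genes moved. In C57 grafts, Krt1 fell 3.66-fold (-1.87 ± 0.27; edgeR adjusted p = 0.000284), Krt24 rose 12.5-fold (3.65 ± 0.46; 0.0001727) and Krt15 rose 2.05-fold (1.03 ± 0.25; 0.008492). Krt14 fell by 0.60 ± 0.19 (edgeR adjusted p = 0.03262), lost without C57 replicate 1 (0.1588) or 3 (0.06008) of day 14, 2 (0.1034) or 3 (0.1011) of day 28, with upper quartile scaling (0.05091) or on the epithelial scale (0.2127). That was 2 of 8 up and 2 down where 22.6% were called, 8.4% higher and 14.2% lower, and 5 of 8 did not overlap (43.1% of all genes tested). In these grafts a basal and a suprabasal gene moved in each direction.

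In E7 grafts, Krt1 fell 1.89-fold (-0.91 ± 0.26; edgeR adjusted p = 0.02808), and Krt24 rose 8.18-fold (3.03 ± 0.76; 0.01632) and Krt77 8.83-fold (3.14 ± 0.89; 0.0285), where 17.2% were called, 7.68% higher and 9.48% lower. Libraries of the days did not overlap for 5 of 8 genes (39.6% of all genes tested). The Krt24 call was lost without replicate 1 (0.05307) or 2 (0.05777) of day 14 or 1 (0.07472) of day 28. The Krt1 call was lost without replicate 1 (0.06022) or 2 (0.1426) of day 14 or any one of day 28 (0.08955, 0.07748 and 0.0556), and that of Krt77 without the same 5 (0.09659, 0.0999, 0.05622, 0.06174 and 0.05343). Without replicate 3 of day 14 the Krt77 value was 3.73, and without replicate 1 of day 28 that of Krt24 was 2.41. None of the 3 basal genes passed, and Krt15, at 0.72 ± 0.25 (edgeR adjusted p = 0.06136), was the 1 of 3 under 0.05 before adjustment. Krt15 did pass with DESeq2 (adjusted p = 0.02877) and, in edgeR, on the epithelial scale (0.04738), with all 24 libraries in one fit (0.03715) and with only these 6 libraries (0.02122). Krt10, at -0.78 ± 0.29 (edgeR adjusted p = 0.07258), passed with DESeq2 (0.02971), with all 24 libraries in one edgeR fit (0.03214) and without replicate 3 of day 14 (0.02784).

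In grafts labelled CD1dKOxE7, 5 of 8 rose and 1 fell, where 22.6% were called, 10.8% higher and 11.8% lower, and 5 of 8 did not overlap (30.9% of all genes tested). Krt2 rose 68.7-fold (6.10 ± 1.11; edgeR adjusted p = 0.001848), Krt24 24.7-fold (4.62 ± 0.93; 0.00319) and Krt10 3.66-fold (1.87 ± 0.30; 0.0006034). Krt2 read 12.4, 7.02 and 6.20 CPM at day 14 and 913, 825 and 21.6 CPM at day 28, with replicate 3 far below replicates 1 and 2. Krt24 had only 4, 2 and 1 counts at day 14. With 1 library left out, Krt2 ran from 5.63 to 6.67 and Krt10 from 1.68 to 2.17 on the log2 scale. The Krt24 value was 3.45 without replicate 2 of day 28, which held 13.7 CPM against 2.18 and 3.47 CPM in the others. Krt15 rose 1.99-fold (0.99 ± 0.25; edgeR adjusted p = 0.01135; 0.56 and 0.03216 without replicate 3 of day 28). It did not pass on the epithelial scale (0.05825) or with only these 6 libraries fitted (0.08375). Krt1 rose 1.74-fold (0.80 ± 0.26; edgeR adjusted p = 0.03989), with overlapping groups, and was lost without replicate 1 (0.09669) or 2 (0.1294) of day 14, 1 (0.1336) or 2 (0.1925) of day 28, on the epithelial scale (0.06825), without a filter on low counts (0.05166) or with only these 6 libraries (0.1609). Krt14 fell by 0.70 ± 0.19 (edgeR adjusted p = 0.01615), lost without replicate 1 (0.0631) or 3 (0.07745) of day 14, 1 (0.0748) of day 28, or with only these 6 libraries (0.09908). Krt77, at 1.96 ± 0.85, passed only without replicate 1 of day 14 (3.11, 0.04099).

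Summed levels compare the layers as a whole. The log2 ratio of the 3 basal to the 5 suprabasal genes, each class summed in CPM, was -1.19 ± 0.21 in C57 ear and -2.03 ± 0.09 in E7 ear, without overlap. In grafts of day 14 it was -1.54, -1.74 and -1.87 in C57 skin, -1.86, -2.49 and -1.74 in E7 skin, and 0.47, 0.23 and 0.27 in skin labelled CD1dKOxE7. These last were the only 3 of 24 libraries in which the basal sum was larger, a difference from E7 grafts of 2.35 (5.10-fold). At day 28 the ratio was -1.58 ± 0.16 in C57, -1.36 ± 0.13 in E7 and, in the CD1dKOxE7 libraries, -1.70, -1.66 and -0.47. The last value is again replicate 3, and the 3 groups overlapped at that day. Without Krt10 the day 14 difference was 1.94. Between E7 and C57 grafts the ratio overlapped at both days, and its sign depended on the weight of the members: the difference of -0.31 at day 14 was 1.09 when the members' log2 levels were averaged, so that Krt2 and Krt24 weighed as much as Krt1 and Krt10. The basal sum itself took 0.961 to 1.72% of counts as group means, highest in the grafts labelled CD1dKOxE7 of day 14. The ratio has no model over genes and is given without a test, as 3 against 3 libraries cannot go below an exact two-sided permutation p of 0.10.

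**Figure D3:**
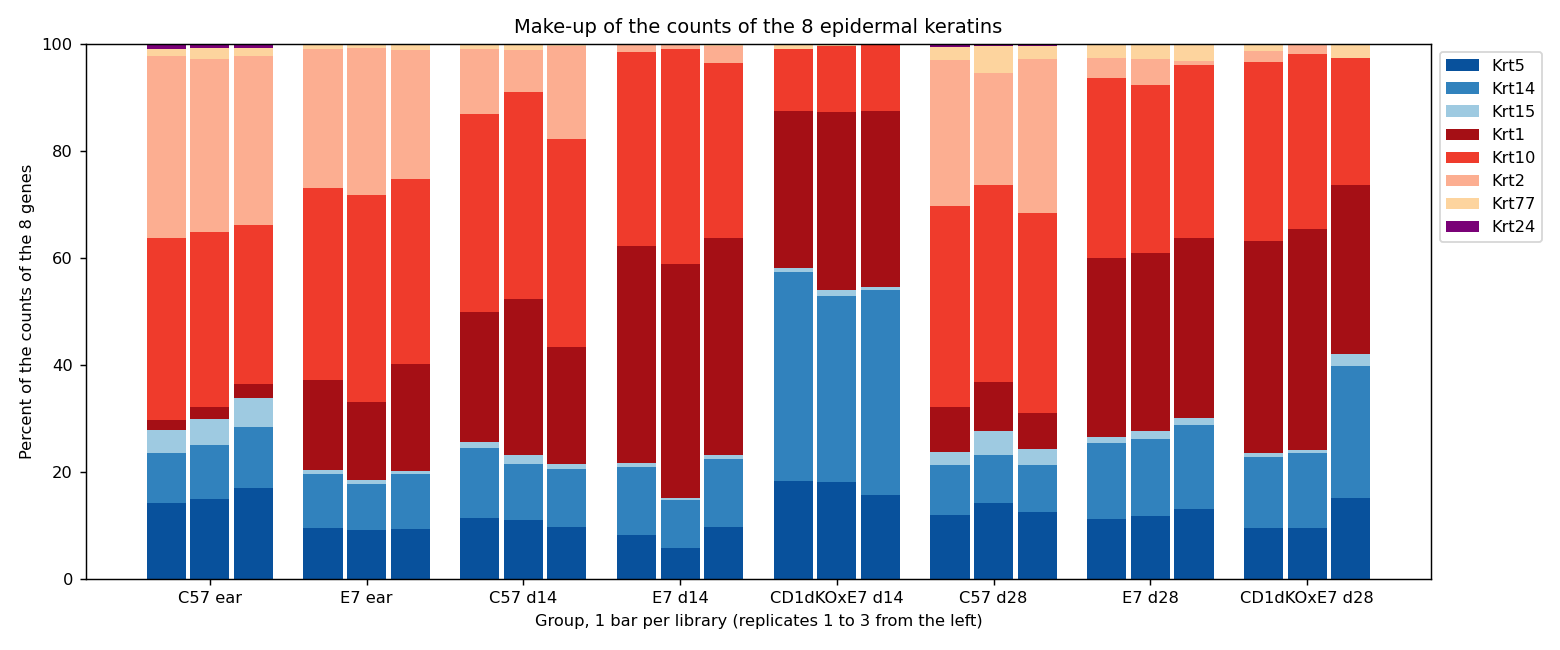
Share of each of the 8 keratin genes (percent of their summed counts, y axis) in each of 24 libraries (x axis, by group). In CD1dKOxE7 grafts of day 14 Krt2 holds 0.0278% and Krt10 12.2% on average, against 32.6% and 32.1% in C57 ear.

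Within the suprabasal class the members also exchanged places. Per kilobase, Krt1 was 0.0755-fold of Krt2 in C57 ear, 0.709-fold in E7 ear and 2.47-fold in C57 grafts of day 14. It was 32.1-fold of Krt2 in E7 grafts of day 14 and 1365-fold in those labelled CD1dKOxE7. At day 28 it was 0.350-fold in C57, 19.5-fold in E7 and, by library, 22.3, 28.4 and 493-fold in CD1dKOxE7 grafts. The order of Krt1 over Krt2 held in all 12 libraries of E7 and CD1dKOxE7 grafts. In the basal class, Krt14 per kilobase was 0.862-fold of Krt5 in C57 ear and 1.35-fold in E7 ear. In grafts of day 14 it was 1.38-fold in C57, 1.92-fold in E7 and 2.82-fold in CD1dKOxE7 skin, and in grafts of day 28 0.919, 1.59 and 1.94-fold. The libraries of C57 grafts of day 14 (1.23 to 1.47) overlapped those of E7 ear (1.23 to 1.42).

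**Figure D4:**
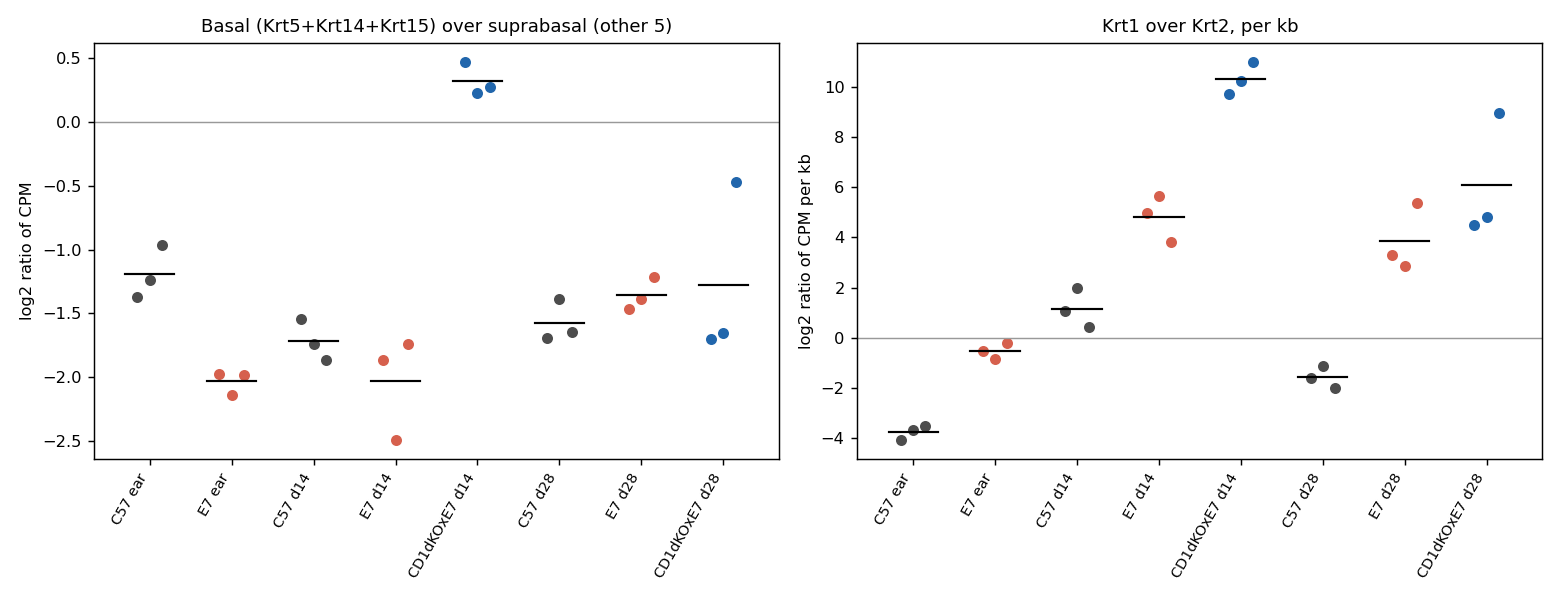
Left, log2 ratio of summed basal to suprabasal keratin CPM; right, log2 ratio of Krt1 to Krt2 CPM per kilobase; 1 point per library, by group. The 3 CD1dKOxE7 grafts of day 14 lie above 0 at left, where all others lie below, and are highest at right.

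Genes that accompany the switch from basal to suprabasal cells were read from lists, without the scaling to epithelial genes. That scaling put the median of all genes at -0.66 in E7 ear and at -0.39 and -0.42 in E7 grafts of days 14 and 28. Of 18 spinous and granular layer genes, 17 rose and 1 fell in E7 ear (median 1.29; 32.6% of all genes rose), among them Flg (filaggrin, 3.30), Casp14 (a protease of cornification, 3.04) and Ivl (involucrin, 2.31). In E7 grafts 14 rose and 1 fell at day 14 (median 0.81; Klk7, a protease that sheds corneocytes, 1.08) and 11 rose and 1 fell at day 28 (median 0.47; Rptn, repetin, 4.40), where 15.8% and 20.7% of all genes rose. In grafts labelled CD1dKOxE7 of day 14, 15 of 18 fell against E7 grafts and none rose (median -1.17; 14.8% of all genes fell), including Hrnr (hornerin, -2.87), Ivl (-1.37) and Cdsn (corneodesmosin, -1.13). At day 28 none of the 18 passed. From day 14 to day 28 of that donor 13 rose, Flg2 by 2.13 and Hrnr by 2.25, and 1 fell. Among all genes tested, 10.8% rose and 11.8% fell there. So Krt24 (ear and both days) and Krt2 (day 28) fell in E7 against C57 skin in comparisons where most of this list rose.

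Of 12 genes by which basal cells attach, such as integrins and laminins, 2 rose and 8 fell in E7 ear (median -0.68), where 32.6% of all genes rose and 32.7% fell, with Dst (dystonin) at -1.13 and Itgb1 at -0.73. In E7 grafts 1 rose and 2 fell at day 14 and 1 rose and 3 fell at day 28. Against E7 grafts of day 14, 4 rose and none fell in those labelled CD1dKOxE7, with Lamb3 at 0.63 and Itgb1 at 0.53. These graft counts, 3 to 4 of 12, lie near the either-direction shares of all genes in the same comparisons (30.2%, 35.4% and 29.8%). The 4 called in grafts labelled CD1dKOxE7 all rose, where 15.1% of all genes rose and 14.8% fell. Of 24 regulators of epidermal fate, 17 rose and 2 fell in E7 ear, with Ovol1 at 1.69 and Zfp750 at 1.18, both known for driving differentiation. In grafts labelled CD1dKOxE7 of day 14, 3 rose and 11 fell (median -0.30; 15.1% and 14.8% of all genes), with Ovol1 at -0.91 and Zfp750 at -0.75. On the epithelial scale, not read for this list, the median of all genes in that comparison was 0.34 instead of -0.03. Among other epidermal keratins, 6 of 9 rose and 2 fell in E7 ear, including Krt17 at 2.24. In E7 grafts of day 28, 6 of 10 rose and 1 fell, where 20.7% of all genes rose and 14.7% fell. There Krt16 rose by 5.84, Krt6b by 4.48 and Krt6a by 3.25, keratins known from hyperproliferative epidermis. At day 14 this list summed to 14080 to 27600 CPM in grafts labelled CD1dKOxE7. It summed to 8729 to 14740 CPM in E7 grafts and 3879 to 5989 CPM in C57 grafts of that day. In E7 skin 5 of 5 proliferation genes rose in ear and at both days of grafting, where 32.6%, 15.8% and 20.7% of all genes rose.

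The genes whose levels ran closest to the members over the 18 graft libraries were found by Pearson correlation of log2 CPM with 14436 other genes, as a description of libraries that share groups. Krt10 was nearest to Hrnr (r = 0.977), Krt78 (0.956) and Rps6ka6 (0.943), and Krt1 to Tubg1 (0.979), Thop1 (0.968) and Smc3 (0.967). Krt5 was nearest to the integrin gene Itga6 (0.821), Il1rl2 (0.792) and Cdh1 (0.777), and Krt14 to Pkm (0.976), Fam162a (0.959) and Krt6a (0.958). Outside the naming rule, and chosen after their values were seen, Krt2 was nearest to Paqr5 (0.960) and Krt24 to Wdr13 (0.968).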

How the data were processed

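The authors deposited integer read counts per Entrez gene, 1 table for each of 24 libraries. Per the submitters' processing notes, reads were handled with bcl2fastq 1.8.4, Trimmomatic and FastQC and placed on mm10; the aligner, counter, annotation and strand are not given in the sources used here. Per the labels' protocols, RNA was extracted with Trizol and RNeasy and libraries were made with TruSeq RNA v2. Of 27180 rows, 25275 matched RefSeq and 1905 did not. Library totals of 6550011 to 13814448 counts set the precision, and no other per-sample column was found (0). In the labels "dpg" was taken to mean days after grafting.

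Tests used edgeR 4.0.16 (R 4.3.3, limma 3.58.1) on these counts: filterByExpr by group with a minimum count of 10 and total of 15, TMM normalization, robust quasi-likelihood F tests and Benjamini-Hochberg adjustment over all genes tested, with 0.05 as threshold. The 6 ear libraries (15720 genes, biological coefficient of variation 0.0845), the 18 grafts (16189, 0.150) and, for graft against ear, all 24 (16612, 0.134) were each fitted together. CPM are counts over TMM-scaled library sizes of all 24 libraries. The SE is the absolute log2 fold change over the square root of F, and 95% intervals use t quantiles. The code was tested on simulated data. Tables and figures used Python 3.11.15, numpy 2.4.6, pandas 2.3.3 and matplotlib 3.10.9.

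Members and gene lists were chosen with earlier results of these data known. All 8 members are named; from each list up to 3 called genes with the smallest adjusted p, at least 1 CPM and no overlap; and for 4 members the 3 most alike genes. Ccnb1 and Krt85 of the lists had no matching row. Cd1d1 was added as a check of the labels. Graft against ear within C57 and E7, CD1dKOxE7 against C57, and the ratios without Krt2 or Krt10 were added after levels were seen, as was the view of values without CD1dKOxE7 replicate 3 of day 28. Replicates did not agree within sampling noise (chi-square per degree of freedom 3.78 to 31.5), so none was counted as a duplicate. Same-numbered grafts deviated together in all 3 pairs (r 0.109 to 0.326) for CD1dKOxE7 against E7 at day 28, and also for CD1dKOxE7 against C57 at day 14 (0.113 to 0.229); the labels state no pairing. Alternatives were RLE and upper quartile normalization, scaling to 13 general epithelial genes, no filter, a filter of 1 CPM or more in 3 or more libraries, the DESeq2 1.42.0 test, only the groups compared, all 24 libraries in one fit, a replicate block and leaving out each library.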

Additional observations from a re-analysis of the deposited data

Results flagged for a closer look

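The contrast of grafts labelled CD1dKOxE7 with E7 grafts differed between day 14 and day 28 for 3 suprabasal genes, by the interaction term of the edgeR fit: the log2 difference was 1.71 for Krt1, 2.65 for Krt10 and 5.74 for Krt2. In each, all 3 labelled grafts lay below the E7 range at day 14. At day 28 replicate 3 was below the E7 range in each (Krt1 10010, Krt10 7493 and Krt2 21.6 CPM, against lowest E7 values of 14680, 14750 and 420 CPM), while replicates 1 and 2 were above it for Krt1 and Krt10 and within it for Krt2.

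The E7 effect differed between grafts of day 14 and ear for Krt15 (1.60) and Krt1 (-2.21), and between grafts of day 28 and ear for Krt15 (1.27), Krt1 (-1.26) and Krt24 (-2.47). Both Krt15 values mean a smaller fall in grafts, both Krt1 values a smaller rise, and the Krt24 value a larger fall. Ear and graft were sequenced on different flow cells, and each E7 effect was taken within the same flow cell. A flow cell difference that acted unlike on C57 and E7 libraries cannot be told apart from tissue in these 5 values.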

How the results depend on the processing

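Of 1183 member values in other settings, 1084 kept their direction and side of the threshold, 25 lost and 40 gained a call and 34 changed sign; of 1056 values with 1 library left out, 946 were kept, 69 lost and 5 gained a call and 36 changed sign. Where no cause follows from a setting's own construction, the cause was not tested. Depth limits Krt24, with 1 to 9 counts per library in E7 and CD1dKOxE7 grafts of day 14.

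Genes called in E7 against C57 grafts were 4889 at day 14 and 7352 with epithelial scaling, and at day 28 8650 with epithelial scaling, over 1.5 times the count reported. For CD1dKOxE7 against E7 at day 28 they were 34, and 10 with epithelial scaling, 243 with DESeq2, 125 with all 24 libraries in one fit and 3 with only the groups compared. For CD1dKOxE7 grafts over time they were 3660, and 2304 with epithelial scaling and 1308 with only the groups compared. For the change of the E7 effect between the days they were 27, and 15, 145, 62 and 55 under those 4 settings. For the change of the CD1dKOxE7 contrast they were 2080, and 1314 with only the groups compared. For the E7 effect at day 28 against ear they were 1234, and 668 with epithelial scaling and 2190 with only the groups compared.

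With a replicate block, 65 genes were called for CD1dKOxE7 against E7 at day 28, Krt2 lost its call in E7 against C57 at day 28 (-2.77; edgeR adjusted p = 0.0505), Krt10 for CD1dKOxE7 against C57 at day 28 stood at -0.0045, and no other member call changed. Ears carry animal numbers that pair nothing, so no block was fitted there.

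With 1 library left out, genes called were 9425 to 9989 in ear, 3043 to 4488 and 4366 to 4804 for E7 against C57 at days 14 and 28, 3799 to 4382 and 4 to 304 for CD1dKOxE7 against E7, 2595 to 3152, 1211 to 2753 and 2022 to 5142 over time in C57, E7 and CD1dKOxE7, 12 to 72 and 1099 to 3956 for the changes of the E7 and CD1dKOxE7 contrasts between days, and 1394 to 1882 and 743 to 1097 for the E7 effect in grafts of days 14 and 28 minus ear.

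The basal to suprabasal ratio, with 1 library left out, differed by -0.93 to -0.73 for E7 against C57 in ear, -0.46 to -0.08 at day 14 and 0.15 to 0.31 at day 28. It differed by 2.12 to 2.497 and -0.32 to 0.30 for CD1dKOxE7 against E7, and by 0.04 to 0.23, 0.44 to 0.82 and -1.999 to -1.38 over time in C57, E7 and CD1dKOxE7. It turned sign for E7 grafts of day 14 against ear (-0.14 to 0.23) and CD1dKOxE7 against C57 at day 28 (-0.10 to 0.51). With the mean of log2 levels it was -1.02 in ear, 1.09 at both days for E7 against C57 (1.086 and 1.093), 0.62 for CD1dKOxE7 against E7 at day 28, -0.70, -0.69 and -2.64 over time and 0.019 for C57 grafts of day 14 against ear. With only Krt5 and Krt14 against Krt1 and Krt10 it was -1.06 in ear, -0.25 for E7 against C57 at day 28, 0.47 over time in C57, -0.54 for E7 grafts of day 14 against ear and -0.22 for CD1dKOxE7 against C57 at day 28. Without Krt2 these 5 were -1.19, -0.33, 0.49, -0.53 and -0.28. Without Krt15 the ear value was -0.64, and without Krt10 that of CD1dKOxE7 against E7 at day 14 was 1.94.

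Epithelial scaling, whose median over all genes moved by -0.66 in ear, turned Krt5 to -0.62 (ear), -0.17 and -0.14 (E7 against C57, days 14 and 28), 0.29 (C57 over time), 0.080 and 0.40 (E7 grafts of days 14 and 28 against ear) and -0.36 (CD1dKOxE7 against C57, day 28). It turned Krt2 to -0.24 in ear. Krt10 turned to -0.25 (E7 against C57, day 28), 0.014 (E7 effect at day 14 minus ear) and -0.44 (CD1dKOxE7 against C57, day 28), and Krt77 to -0.24 (E7 against C57, day 28) and 0.19 (CD1dKOxE7 against E7, day 14). Krt14 turned to 0.047 (E7 over time), 0.275 (E7 effect at day 14 minus ear) and 0.014 (C57 grafts of day 28 against ear), and Krt15 to -0.033 (change of the CD1dKOxE7 contrast) and 0.14 (E7 grafts of day 14 against ear). Upper quartile scaling turned Krt5 to -0.079 (ear), -0.0034 (CD1dKOxE7 against E7, day 14), 0.059 (C57 over time), 0.0254 (E7 grafts of day 28 against ear) and -0.028 (CD1dKOxE7 against C57, day 28), Krt14 to 0.069 (E7 effect at day 14 minus ear) and Krt10 to -0.060 (CD1dKOxE7 against C57, day 28). For Krt5 in C57 over time, RLE gave 0.013, no filter 0.039, DESeq2 0.013 and only the groups compared 0.022. For Krt14 in the E7 effect at day 14 minus ear, RLE gave 0.0024, no filter 0.014, DESeq2 0.0024 and only the groups compared 0.041. None of these Krt5 and Krt14 values passed but Krt5 with epithelial scaling in ear, in E7 grafts of day 28 against ear and in CD1dKOxE7 against C57 at day 28.

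Leaving out 1 library changed the sign of uncalled values, with these ranges: Krt5 -0.014 to 0.091 in ear, -0.10 to 0.14 for CD1dKOxE7 against E7 at day 14, -0.089 to 0.11 over time in C57, -0.0015 to 0.19 over time in E7, -0.010 to 0.20 for the change of the E7 effect, -0.14 to 0.049 for E7 grafts of day 28 against ear and -0.0040 to 0.089 for CD1dKOxE7 against C57 at day 28. Krt14 ran from -0.013 to 0.13 for CD1dKOxE7 against E7 at day 28 and from -0.19 to 0.17 for the E7 effect at day 14 minus ear. Krt15 ran from -0.15 to 0.51 for the change of the CD1dKOxE7 contrast and from -0.21 to 0.035 for E7 grafts of day 14 against ear. Krt1 ran from -0.11 to 0.39, Krt10 from -0.36 to 0.15 and Krt24 from -1.30 to 0.50 for CD1dKOxE7 against E7 at day 28. Krt10 also ran from -0.14 to 0.45 for E7 grafts of day 14 against ear and from -0.19 to 0.33 for CD1dKOxE7 against C57 at day 28. Krt2 ran from -0.16 to 0.80 over time in E7 and from -0.91 to 0.050 for the change of the E7 effect. Krt77 ran from -0.016 to 0.55 for E7 against C57 at day 28 and from -1.30 to 0.45 for CD1dKOxE7 against E7 at day 14.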

Other observations

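Keratins of the hair follicle, which are not among the 8 members, moved with time in the grafts. Of 11 hair shaft keratins, all 11 fell from day 14 to day 28 in C57, in E7 and in CD1dKOxE7 grafts, with medians of -3.39, -4.13 and -3.32 on the log2 scale. Krt81 stood at -3.58, -4.27 and -3.52 and Krt33b at -3.60, -4.49 and -3.40. Of 9 keratins of the follicle's root sheath, 8 fell in each donor, with Krt26 at -3.12, -3.81 and -3.24. In the same comparisons 14.2%, 9.48% and 11.8% of all genes tested fell. In C57 grafts Krt16, Krt6b and Krt6a, keratins known from wounded epidermis, fell as well, with values of -4.04, -3.945 and -2.385.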
